A study of Mus musculus with 30 samples.

Results

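The genes for platelet-derived growth factors (PDGFs) and their receptors were followed through 30 RNA-seq libraries of cultured mouse aortic smooth muscle cells. The set was chosen by gene symbol and holds the 4 ligand genes Pdgfa, Pdgfb, Pdgfc and Pdgfd, the receptor genes Pdgfra and Pdgfrb, and Pdgfrl, a receptor-like gene. All 7 were found among the 78334 gene identifiers of the deposited table, and all 7 passed the filter on low counts in both sequencing runs. The study knocked down or overexpressed the long noncoding RNA CASC15 and treated cells with angiotensin II or PDGF-BB. In run 2, untreated cells received a control GapmeR (2 libraries), a GapmeR labelled as against total CASC15 (2), a control plasmid (3) or a plasmid for total CASC15 (3). In run 3, cells with the control GapmeR were untreated, given angiotensin II or given PDGF-BB (4 libraries each), and cells with a GapmeR against long CASC15 were untreated or given angiotensin II (4 each). No group combined a CASC15 GapmeR with PDGF-BB. A GapmeR is an antisense oligonucleotide that directs RNase H to the RNA it pairs with. Per the labels, all cells were held in serum-free medium for 48 h and transfected at least 24 h before the endpoint. Treatment lasted 24 h, with human angiotensin II at 10 ng/ml or recombinant human PDGF-BB at 10 to 30 ng/ml, the exact PDGF-BB dose of these libraries not being stated.

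PDGFs are dimeric growth factors of the cystine-knot family that bind receptor tyrosine kinases at the cell surface. The PDGF-A and PDGF-B chains are secreted in active form, whereas PDGF-C and PDGF-D carry a CUB domain that must be cut off before they bind. PDGF receptor α binds A, B and C chains, receptor β binds B and D chains, and ligand binding leads to receptor autophosphorylation, internalisation and degradation. In the vessel wall PDGF-BB is best known as a mitogen and migration signal for smooth muscle cells, and as the endothelial factor that recruits pericytes through receptor β.

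Libraries held 18007199 to 21881959 expected counts (run 2) or 15771490 to 30362047 (run 3). The labels give each library a batch, P16 to P19, with at most 1 library per group, and do not say what the batch is. Pdgfra and Pdgfrb were lowest in the P19 library in 7 of the 7 groups that have one, so receptor changes under PDGF-BB, the long CASC15 GapmeR and the overexpression plasmid are given with and without that batch. The gene 2610307P16Rik, taken here as mouse Casc15 after the data were seen, ran at 604 to 916 CPM (counts scaled to library size) with the plasmid for total CASC15 against 4.03 to 8.69 with the control plasmid, and at 2.15 to 3.48 with the long CASC15 GapmeR against 4.94 to 6.01. Under PDGF-BB with the control GapmeR it ran at 2.95 to 4.82 CPM, below every untreated control library of run 3. It did not fall in the libraries labelled total knockdown, at 8.29 to 9.73 CPM against 6.37 to 7.66, and every direction drawn from those 2 libraries carries that limit. Of the 10 smooth muscle markers, Acta2 had group means of 109 to 254 CPM, Smtn of 46.7 to 95.5 CPM and Tpm2 of 31.5 to 55.6 CPM. Cnn1 was at 0 in 17 of 30 libraries. The highest group means were 16.5 CPM for Myl9, 11.3 for Synpo2, 5.49 for Myh11, 3.25 for Tagln, 2.14 for Des and 1.03 for Lmod1. Of 7 fibroblast markers, Col1a1 (1380 to 3020 CPM) and Dcn (664 to 1900 CPM) were abundant in every group. Ly6a and Pi16 had group means of 9.1 to 485 and 6.44 to 66.4 CPM. Dpt and Lum did not exceed group means of 0.487 and 3.83 CPM, and Dpep1 was at 0 in 26 of 30 libraries. The endothelial markers Cldn5 and Tie1 and the leukocyte marker Tyrobp were at 0 in all 30 libraries, but Pecam1 and Cd68 were at 0 in none, with up to 73 and 355 counts, and Vwf reached 137 counts. Nothing in the labels says that libraries came from separate animals or cultures, so p-values measure the spread between these libraries.

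Promoter sequence is shown for Pdgfra, the member that moved most under PDGF-BB, for Pdgfc, whose change there did not pass the test, and for Pdgfd, which passed against angiotensin II but not against untreated cells. Each is the 250 bases before the RefSeq transcription start (build GRCm38.p6), 5′ to 3′ on the gene's strand. Capitals mark a match to one of 5 motifs searched on both strands: CCAAT (NF-Y), GGGCGG (Sp1 and Sp3), CACGTG (E-box), TATAAA, the core-promoter box, and TTGCNNAA (C/EBP), the last added after the Pdgfra window had been read.
Pdgfra: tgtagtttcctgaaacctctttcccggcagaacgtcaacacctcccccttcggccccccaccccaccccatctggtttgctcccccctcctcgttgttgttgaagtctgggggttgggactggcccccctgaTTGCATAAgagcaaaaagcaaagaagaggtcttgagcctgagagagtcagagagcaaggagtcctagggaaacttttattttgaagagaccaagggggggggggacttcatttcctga
Pdgfd: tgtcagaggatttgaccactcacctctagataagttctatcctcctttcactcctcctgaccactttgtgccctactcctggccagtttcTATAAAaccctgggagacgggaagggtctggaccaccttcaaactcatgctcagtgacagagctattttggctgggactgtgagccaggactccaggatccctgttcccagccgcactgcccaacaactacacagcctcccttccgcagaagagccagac
Pdgfc: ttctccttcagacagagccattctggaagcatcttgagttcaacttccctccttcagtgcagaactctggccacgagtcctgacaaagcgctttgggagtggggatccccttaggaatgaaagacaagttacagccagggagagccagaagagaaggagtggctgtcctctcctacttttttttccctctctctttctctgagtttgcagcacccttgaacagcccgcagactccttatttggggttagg
The Pdgfra window lies at chr5:75152001-75152250, plus strand, and holds 1 TTGCNNAA match. The Pdgfd window, chr9:6168236-6168485, plus strand, holds 1 TATAAA match, which lies nearer the 5′ end of the window than the transcription start. None of the 5 motifs occurred in the Pdgfc window at chr3:81036166-81036415, plus strand. Among 32851 RefSeq windows of the same length, TTGCNNAA occurred in 9.56%, TATAAA in 12.4%, CCAAT in 33.8%, GGGCGG in 32.7% and CACGTG in 6.02%. Both Pdgfa windows overlap annotated exons and are not printed. They hold 1 and 2 GGGCGG matches. Windows were available for 4 of the 7 members, with none for Pdgfb, Pdgfrb or Pdgfrl. The printed windows are thus those available outside annotated exons, whatever the change of the gene. A match is a string of letters and not evidence of binding.

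Levels were compared between genes as CPM per kilobase of annotated exon. In untreated control cells of run 3 the receptor gene Pdgfrb was by far the highest member, at 47.1 ± 6.78 CPM per kb (SD, n = 4). Pdgfa followed at 5.03 ± 0.27 and Pdgfb at 2.78 ± 0.414, with no overlap between the libraries of neighbours in that order. Pdgfd (2.13 ± 0.284), Pdgfra (1.51 ± 0.611) and Pdgfc (1.32 ± 0.232) came next, and the libraries of Pdgfb and Pdgfd, of Pdgfd and Pdgfra, and of Pdgfra and Pdgfc overlapped. Pdgfrl was lowest at 0.482 ± 0.0615. Pdgfrb ranked first and Pdgfa second by mean in all 9 groups, although Pdgfra overlapped Pdgfa in both long knockdown groups. The rank of Pdgfra moved most: it had the lowest mean of the 7 under PDGF-BB (0.31 ± 0.0951), where its libraries overlapped those of Pdgfrl (0.341 ± 0.13), and the third highest with the long CASC15 GapmeR (4.73 ± 2.44). The ratio of Pdgfrb to Pdgfra per kilobase, computed within each library, had a median of 32 in untreated control cells (23.7 to 51.8), 102 under PDGF-BB (88.6 to 154) and 12.1 with the long CASC15 GapmeR (11.6 to 30.7).

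**Figure D1:**
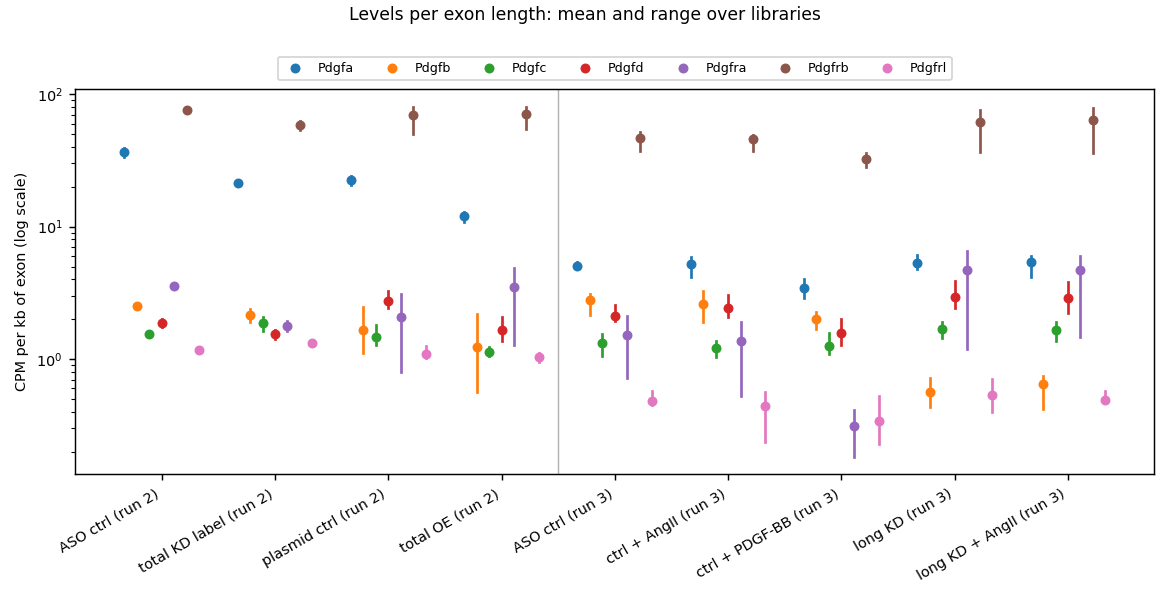
Mean level of each PDGF gene in the 9 groups, in CPM per kilobase of exon on a log axis, with vertical lines from the lowest to the highest library. Pdgfrb is highest and Pdgfa second by mean in every group, while Pdgfra has the lowest mean under PDGF-BB, overlapping Pdgfrl, and the third with the long CASC15 GapmeR.

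In control cells given PDGF-BB, the RNA of its own ligand gene Pdgfb, of Pdgfa and of the receptor gene Pdgfra was lower than in untreated cells. Of the 7 members 3 were called, all lower, where 43.6% of the 15103 genes tested were called and 20.0% were called lower. A call here is an adjusted p under 0.05 in the edgeR quasi-likelihood test, by Benjamini-Hochberg over all genes tested. The median log2 fold change was -0.50 over the 7 members and -0.02 over all genes tested. With the batch as a block in the model, 5 of 7 members were called against 54.5% of all genes, and Pdgfrb and Pdgfd were the additions. The sum of 10 smooth muscle markers was 265 to 293 CPM under PDGF-BB and 301 to 327 CPM untreated, although of the 9 tested 3 were called higher and 1 lower. The sum of 8 endothelial markers was 0.356 to 0.948 CPM against 1.19 to 2.33 CPM, with Cldn5 and Tie1 at 0. Of 5 fibroblast markers tested 2 were called higher and 2 lower. Of 2 pericyte markers 1 was called higher (sums of 92.6 to 149 against 67.3 to 111 CPM), and of 2 platelet and megakaryocyte markers 1 was called lower (3.31 to 6.48 against 5.01 to 12.1 CPM). The part of these markers in the results was not tested.

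Pdgfra encodes receptor α. It read 13.8, 18.5, 21.1 and 7.18 CPM in untreated libraries P16, P17, P18 and P19, and 3.42, 4.11, 3.06 and 1.83 CPM in the PDGF-BB libraries in the same order. Every treated library lay below every untreated one, and the mean of 3.10 ± 0.954 CPM was 20.7% of the control mean by the fit. The log2 fold change was -2.27 (SE 0.607, Benjamini-Hochberg adjusted p = 0.00619 by edgeR quasi-likelihood). Within batches the log2 ratio ran from -2.75 in P18 to -1.91 in P19, and without P19 the fitted change was -2.32. The change was smallest in P19, the batch with the least Pdgfra. In RNA from whole cultures, fewer cells of a type and less RNA per cell cannot be told apart.

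Pdgfrb encodes receptor β, the main receptor for PDGF-BB. It read 269, 286, 274 and 203 CPM untreated and 183, 199, 177 and 155 CPM under PDGF-BB, in batch order P16 to P19. All 4 treated libraries were below all 4 untreated ones, with P19 lowest in both groups. The log2 fold change was -0.53 (SE 0.222) and missed the threshold, at an adjusted p of 0.0621 (edgeR quasi-likelihood, Benjamini-Hochberg). It passed with the batch as a block (adjusted p = 0.003) and without P19 (-0.57, adjusted p = 2.45e-07), and in 6 of 15 alternative fits in all.

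The 2 classical ligand genes had smaller fold changes than Pdgfra. Pdgfa, which encodes the A chain, read 14.8, 16.8, 15.6 and 15.5 CPM untreated and 12.5, 11, 10.2 and 9.01 CPM under PDGF-BB. The groups did not overlap, and the log2 fold change was -0.56 (SE 0.129, Benjamini-Hochberg adjusted p = 0.00156 by edgeR quasi-likelihood). Pdgfb, which encodes the chain that was added as protein, read 12.9, 12.4, 12 and 9.04 CPM untreated and 8.30, 8.52, 9.48 and 7.07 CPM treated. One untreated library, P19, lay inside the treated range. The log2 change of -0.47 (SE 0.185) just passed at an adjusted p of 0.0468 (edgeR quasi-likelihood, Benjamini-Hochberg), and it passed in 8 of 15 alternative fits. The call was lost without a filter on low counts and when untreated P16, P17 or P18 or treated P16, P17 or P19 was left out, with changes of -0.48 to -0.42.

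The ligand genes with a CUB domain were not called in this comparison. Pdgfd read 6.13, 6.17, 6.48 and 8.02 CPM untreated and 4.04, 4.57, 6.27 and 4.99 CPM treated, a log2 fold change of -0.43 with an adjusted p of 0.0729 (edgeR quasi-likelihood, Benjamini-Hochberg). The P18 treated library overlapped the untreated range, and the change passed in 3 of 15 alternative fits, among them that with the batch as a block (adjusted p = 0.0143). Pdgfc had means of 6.70 ± 1.18 and 6.40 ± 1.07 CPM, a log2 fold change of -0.06 with a 95% interval of 0.767 to 1.2 for the fold, and -0.28 without P19 (adjusted p = 0.137, same edgeR test). Its ratio was below 1 in P16, P17 and P18 and above 1 in P19. Pdgfrl, a receptor-like gene without a kinase domain, was at 12 to 53 counts per library in run 3, and its change of -0.50 did not pass. It passed when the treated P18 library was left out (-0.77, adjusted p = 0.0429), and the range with 1 library left out was -0.77 to -0.35.

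**Figure D2:**
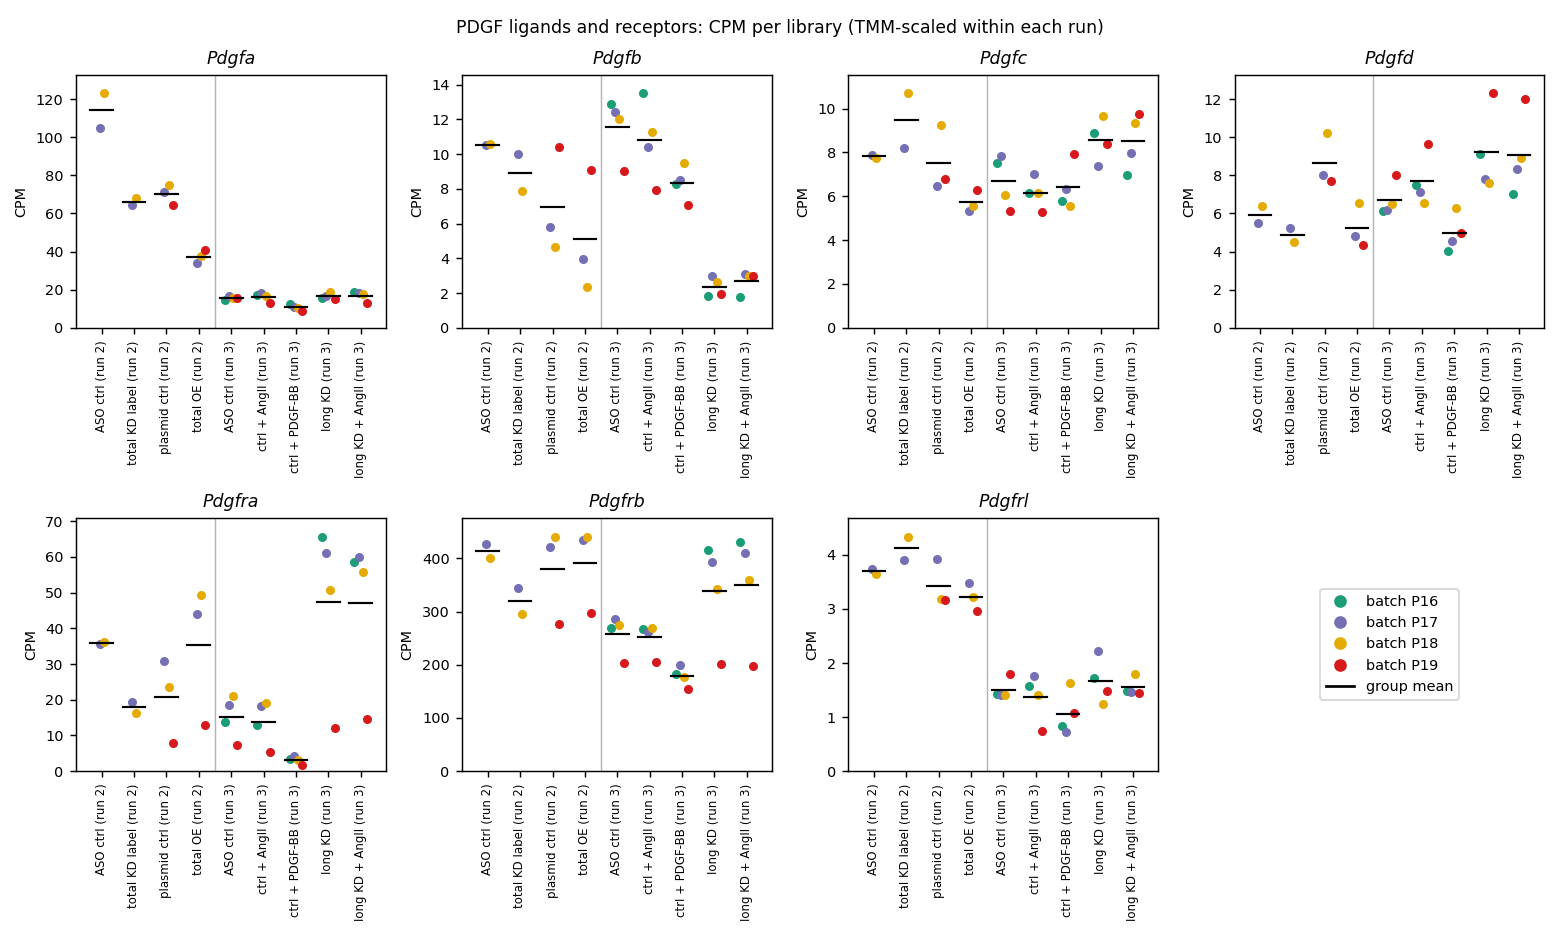
CPM of each PDGF gene in each of the 30 libraries, coloured by batch, with group means as black lines and a grey line between runs 2 and 3. P19, in red, is the lowest library for Pdgfra and Pdgfrb in every group that has one, and the 4 PDGF-BB libraries of Pdgfra lie at 1.83 to 4.11 CPM.

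Angiotensin II is a vasoconstrictor peptide that signals through G protein-coupled receptors. In control cells given it, 0 of 7 members were called, as were 0.0% of all genes, while 156 genes had an unadjusted p under 0.05 and DESeq2 called 1 gene. Pdgfra read 12.8, 18.1, 19.2 and 5.30 CPM under angiotensin II, overlapping the untreated libraries. The largest member change was Pdgfd at 0.19 on the log2 scale, from 6.70 ± 0.895 to 7.68 ± 1.35 CPM. With the long CASC15 GapmeR 0 of 7 members were again called, with 0.0% of all genes called, 174 at an unadjusted p under 0.05, and none called by DESeq2. The interaction of the GapmeR with angiotensin II called 0 of 7 members and 0.0% of genes, with 166 at an unadjusted p under 0.05 and 1 called by DESeq2. The 95% interval of the Pdgfra fold under angiotensin II in control cells was 0.422 to 2.03, the widest of the 7, and that of the Pdgfa fold was 0.866 to 1.25.

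PDGF-BB compared directly with angiotensin II gave 3 of 7 members called, all lower, against 42.4% of all genes called and 19.4% called lower. These were Pdgfra (log2 fold change -2.16, SE 0.612), Pdgfa (-0.61, SE 0.129) and Pdgfd (-0.63, SE 0.193), with Benjamini-Hochberg adjusted p-values of 0.00917, 0.000736 and 0.0127 by edgeR quasi-likelihood. Pdgfra, Pdgfa, Pdgfd and the uncalled Pdgfrb (adjusted p = 0.0845, same test) did not overlap between these groups. Such non-overlap was not counted over all genes. The Pdgfd call was lost without the angiotensin II library of P19 (-0.50, adjusted p = 0.0566). With the batch as a block, Pdgfb (adjusted p = 0.0461) and Pdgfrb (adjusted p = 0.00511) were added, making 5 of 7 against 53.7% of genes. Without batch P19, Pdgfra changed by -2.24 (adjusted p = 3.96e-07) and Pdgfrb by -0.51 (adjusted p = 1.23e-06) in the same edgeR test. The smooth muscle marker sum was 265 to 293 CPM under PDGF-BB against 306 to 334 CPM under angiotensin II, with 3 called higher and 2 lower of 9 tested. Of 5 fibroblast markers 1 was called higher and 2 lower, of 2 pericyte markers 1 higher and of 2 platelet and megakaryocyte markers 1 lower. Their part in the results was not tested. This comparison shares its PDGF-BB libraries with the comparison against untreated cells.

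The long CASC15 GapmeR moved a ligand and a receptor in opposite directions: Pdgfb fell and Pdgfra rose. In untreated cells 2 of 7 members were called, against 25.0% of all genes. Pdgfb read 1.82, 3, 2.61 and 1.96 CPM with the GapmeR, in batch order P16 to P19, against 9.04 to 12.9 CPM in control cells. The highest GapmeR library, at 3 CPM, lay far below the lowest control library, and the fitted mean was 20.3% of control. The log2 fold change was -2.30 (SE 0.204, Benjamini-Hochberg adjusted p = 1.1e-07 by edgeR quasi-likelihood), and it passed in 15 of 15 alternatives. The ratio of Pdgfa to Pdgfb per kilobase had a median of 1.77 in control cells and 9.96 with the GapmeR, and Pdgfa itself had a log2 fold change of 0.08, which did not pass.

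Pdgfra read 65.7, 61.1, 50.8 and 12 CPM with the long CASC15 GapmeR, in batch order P16 to P19. Libraries P16, P17 and P18 lay above all control libraries, while P19 lay inside the control range of 7.18 to 21.1 CPM. The log2 fold change was 1.66 (SE 0.527, Benjamini-Hochberg adjusted p = 0.0291 by edgeR quasi-likelihood). It passed in 8 of 15 alternatives, losing its call without a filter on low counts (1.65), with only the groups compared in the fit (1.66), and when control P16 or P19 or GapmeR P16, P17 or P18 was left out (1.41 to 1.62), and it was 1.74 without all of batch P19 (adjusted p = 3.43e-07). Within P19 the GapmeR library was still above its own control, at 12 against 7.18 CPM.

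Pdgfrb read 416, 393, 343 and 201 CPM with the GapmeR, against 269, 286, 274 and 203 CPM in control cells. It was higher in P16, P17 and P18 and level in P19, where the log2 ratio was -0.02. The change of 0.39 did not pass (Benjamini-Hochberg adjusted p = 0.213 by edgeR quasi-likelihood), but passed with the batch as a block (adjusted p = 0.0353) and without P19 (0.47, adjusted p = 5.33e-06). The block also added Pdgfd (0.45, adjusted p = 0.00963), making 4 of 7 members against 40.6% of genes. The sum of 6 platelet and megakaryocyte markers was 10.1 to 17.2 CPM with the GapmeR and 5.01 to 12.1 CPM without, mostly Itga2b. Of 2 tested endothelial markers 1 was called higher, with sums of 1.75 to 3.88 against 1.19 to 2.33 CPM, and of 2 tested pericyte markers 1 was called higher, with sums of 79.1 to 157 against 67.3 to 111 CPM. The sum of 7 fibroblast markers was 3240 to 3530 CPM with the GapmeR and 3600 to 4070 CPM without, and of the 5 tested 1 was called higher and 3 lower. Of 9 smooth muscle markers tested 3 were called higher and 2 lower, with sums of 273 to 375 against 301 to 327 CPM. The part of these markers in the results was not tested.

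**Figure D3:**
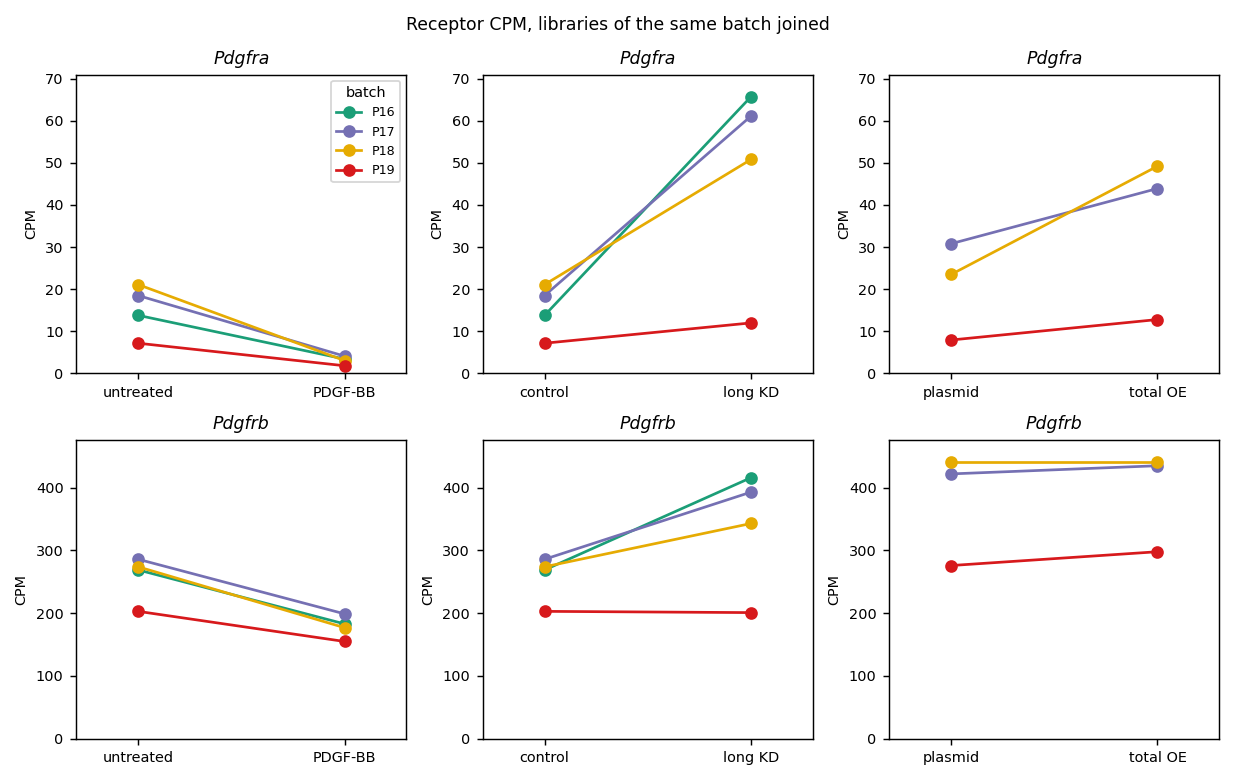
CPM of Pdgfra (top) and Pdgfrb (bottom) with libraries of the same batch joined, for PDGF-BB, the long CASC15 GapmeR and the total CASC15 plasmid, each against its control. Pdgfra falls in all 4 batches under PDGF-BB, and with the long GapmeR P19 moves from 7.18 to 12 CPM while P16 moves from 13.8 to 65.7.

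Under angiotensin II the same GapmeR gave 3 of 7 members called against 26.7% of all genes. Pdgfb was at 1.75, 3.08, 2.99 and 2.99 CPM against 7.95 to 13.5 in control cells with angiotensin II, a log2 fold change of -2 (SE 0.202, Benjamini-Hochberg adjusted p = 4.97e-07 by edgeR quasi-likelihood). Pdgfra was at 58.5, 59.9, 55.7 and 14.6 CPM against 5.30 to 19.2, a log2 fold change of 1.76 (SE 0.533, Benjamini-Hochberg adjusted p = 0.022 by edgeR quasi-likelihood). As in untreated cells, the P19 library of Pdgfra overlapped the control range and the others did not. The Pdgfra call was lost without a filter on low counts (1.77), with only the groups compared in the fit (1.76), and when control P16 or P19 or GapmeR P16, P17 or P18 was left out (1.49 to 1.72). Pdgfc was the third call, from 6.15 ± 0.697 to 8.52 ± 1.27 CPM with a log2 fold change of 0.47 (adjusted p = 0.0301, same test), and it lost its call without batch P19 (0.32, adjusted p = 0.0929), without a filter on low counts (0.48) or when control P16, P18 or P19 or GapmeR P18 or P19 was left out (0.39 to 0.46). With the batch as a block Pdgfrb was added (adjusted p = 0.0128), making 4 of 7 against 41.3% of genes. Without batch P19, Pdgfra changed by 1.78 (adjusted p = 3.12e-07) and Pdgfrb by 0.58 (adjusted p = 2.42e-07) in the same edgeR test. The fibroblast marker sum was 3130 to 3570 CPM against 3750 to 4060 CPM, with 0 called higher and 3 lower of 5 tested, and the platelet and megakaryocyte sum was 9.91 to 16.2 CPM against 5.55 to 8.67 CPM. Smooth muscle markers had 3 called higher and 2 lower of 9 tested, with sums of 295 to 385 against 306 to 334 CPM. The endothelial sum was 1.89 to 3.85 against 0.802 to 2.09 CPM and the pericyte sum 86.9 to 150 against 74.2 to 107 CPM, each with 1 called higher of 2 tested. Their part in these results was not tested. These libraries are not those of the untreated comparison.

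In run 2 the ligand gene Pdgfa was lower both with the total CASC15 plasmid and in the libraries labelled total knockdown, each against its own control. With the plasmid 1 of 7 members was called, lower, against 1.65% of all genes called and 0.554% called lower. Pdgfa read 34.1, 37.4 and 40.6 CPM in P17, P18 and P19, against 71.0, 74.8 and 64.2 CPM with the control plasmid. The groups did not overlap, and the log2 fold change was -0.91 (SE 0.108, Benjamini-Hochberg adjusted p = 0.00412 by edgeR quasi-likelihood).

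Pdgfra read 43.9, 49.2 and 12.8 CPM with the total CASC15 plasmid and 30.8, 23.5 and 7.94 CPM with the control plasmid, in batch order P17 to P19. It was higher in 3 of 3 batches, yet the groups overlapped, with P19 low in both. The log2 change of 0.76 did not pass (Benjamini-Hochberg adjusted p = 0.55 by edgeR quasi-likelihood). It passed with the batch as a block (adjusted p = 0.00127), without a filter on low counts (adjusted p = 0.00119) and without P19 (0.77, adjusted p = 0.0266). With 1 library left out it did not pass and ran from 0.37, without the control plasmid library of P19, to 1.16, without that of P17. Pdgfd was the other addition under the block, from 8.65 ± 1.38 to 5.24 ± 1.13 CPM (adjusted p = 0.0124), making 3 of 7 against 17.7% of genes. Pdgfrb had a log2 fold change of 0.04, and 0.02 without P19. Of 9 smooth muscle markers tested 1 was called lower, with sums of 300 to 557 against 257 to 602 CPM, and the platelet and megakaryocyte sum was 6.1 to 8.39 against 7.65 to 14.1 CPM. Their part in these results was not tested. Pdgfb varied more between batches than between groups, at 5.81, 4.68 and 10.4 CPM with the control plasmid and 3.94, 2.33 and 9.09 CPM with the CASC15 plasmid.

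In the libraries labelled total knockdown 1 of 7 members was called, lower, against 2.07% of all genes called and 0.56% called lower. Pdgfa read 64.5 and 67.9 CPM against 105 and 123 CPM with the control GapmeR, a log2 fold change of -0.79 (SE 0.13, Benjamini-Hochberg adjusted p = 0.0191 by edgeR quasi-likelihood). With any 1 of the 4 libraries left out, the change stayed between -0.90 and -0.68 and did not pass; such a fit has a lone library in 1 group, which is assumed to vary like the other groups. Pdgfra read 19.3 and 16.4 CPM against 35.5 and 36.1 CPM, and Pdgfrb 345 and 295 CPM against 427 and 401 CPM. Neither was called, and both passed with the block (adjusted p = 0.000774 and 0.0258). Pdgfra also passed without a filter on low counts (adjusted p = 0.000195) and with only the groups compared in the fit (adjusted p = 0.00791). The block made the count 3 of 7 against 14.4% of genes. In these 2 libraries the sum of 7 macrophage and leukocyte markers was 17.3 to 21.2 CPM against 0.668 to 0.84 in the control, mostly Cd68, with Tyrobp at 0, and the platelet and megakaryocyte sum was 40.8 to 52.9 against 12.3 to 17.3. The endothelial sum was 7.77 to 12.7 CPM against 2.76 to 4.0, and the pericyte sum 207 to 285 CPM against 139 to 171. The fibroblast sum was lower, at 2670 to 2770 CPM against 2910 to 2960. The part of these markers in the result was not tested.

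**Figure D4:**
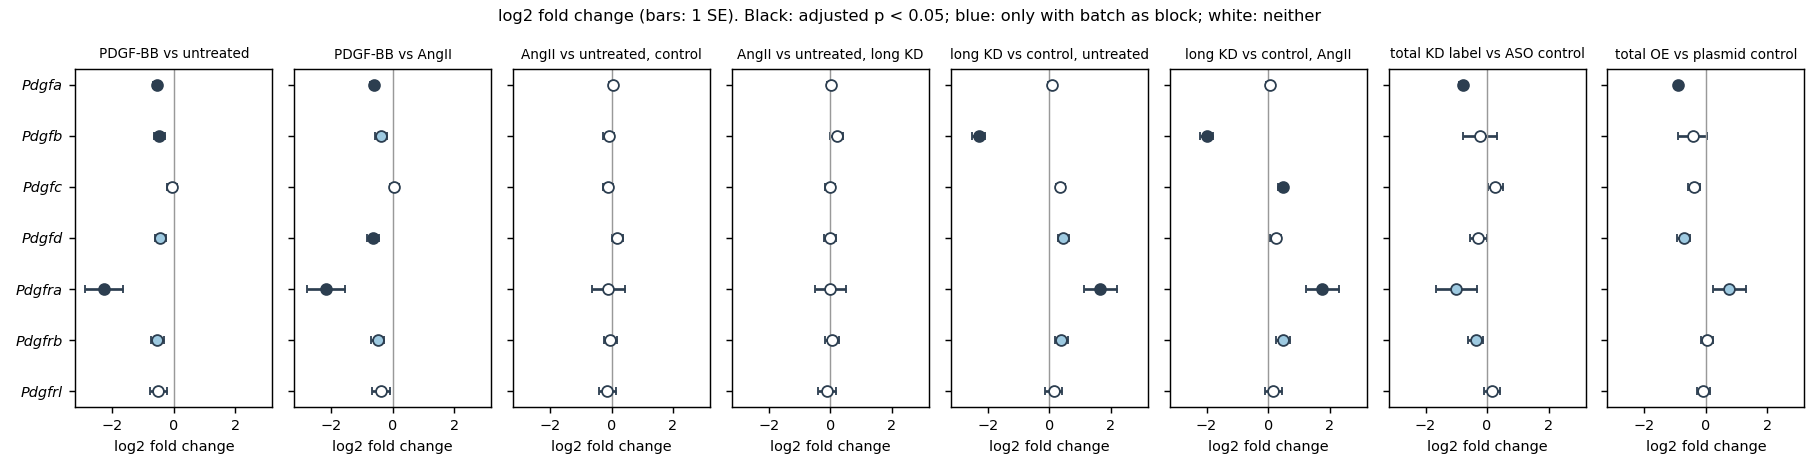
Log2 fold change of each PDGF gene in 8 comparisons, with bars of 1 SE; black points passed an adjusted p of 0.05, blue points passed only with the batch as a block, and white points passed neither. Pdgfra is lower under PDGF-BB (-2.27) and higher with the long CASC15 GapmeR (1.66), and Pdgfb is lower with that GapmeR (-2.30).

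Untreated cells with the control GapmeR were sequenced in both runs, and some members stood at different levels there. Pdgfa was at 105 to 123 CPM in run 2 and 14.8 to 16.8 CPM in run 3, and Pdgfra at 35.5 to 36.1 and 7.18 to 21.1 CPM. Pdgfrb was at 401 to 427 and 203 to 286 CPM, and Pdgfrl at 3.65 to 3.74 and 1.4 to 1.79 CPM. Pdgfb was close in both, at 10.5 to 10.6 and 9.04 to 12.9 CPM. The runs were scaled separately and not tested against each other, so run and any other difference between these libraries cannot be told apart. Reads of 3 members can also be shared with other genes, because the strand used in counting is not stated. Pdgfa shares 813 of its 3119 exon bases with 6330403L08Rik on the opposite strand (28 to 100 counts per library). Pdgfra shares 456 of 10024 with Gm42802 (0 to 4 counts), 166 with Gm42803 (0 to 2 counts) and 30 with Mir7025 on the same strand (0 counts). Pdgfc shares 147 of 5089 with Gm16000 (0 to 2 counts).

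Genes around the PDGF pathway were counted under PDGF-BB from 6 lists, to be read against the 43.6% called among all genes. Of the 15103 genes tested, 3570 were called higher and 3016 lower. Of 24 tested genes for other receptor tyrosine kinases, 3 were called higher and 9 lower. With the batch as a block, where 54.5% of all genes were called, these counts were 4 and 14. Kit, the stem cell factor receptor and a close relative of Pdgfra, fell from 13.6 ± 2.61 to 4.41 ± 0.979 CPM (log2 -1.62), and Egfr, the epidermal growth factor receptor, from 169 ± 12.2 to 105 ± 4.23 CPM (-0.69). Axl, a TAM family receptor, rose from 598 ± 17.6 to 782 ± 22.7 CPM (0.39), and Epha2, an ephrin receptor, from 67.2 ± 9.37 to 108 ± 23.9 CPM (0.68). Ror1 fell (-0.54) and Mertk rose (0.44). 

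Of 29 tested genes for receptor-proximal signalling, 3 were called higher and 10 lower, with the same counts under the block. Gab1, a docking adaptor, fell from 119 ± 3.99 to 78.0 ± 5.28 CPM (log2 -0.61), and Pik3r1, the regulatory subunit of PI 3-kinase, from 207 ± 2.81 to 143 ± 10.4 CPM (-0.53). Plcg1, the phospholipase C that binds activated receptors, fell by 0.42 on the log2 scale. The adaptor gene Crk (0.23) and the kinase gene Jak1 (0.21) rose by small amounts. Of 20 negative regulators, 6 were called higher and 3 lower, and 10 and 3 with the batch as a block. Sh3kbp1, an adaptor in receptor endocytosis, rose by 0.69 on the log2 scale, Dok1, a docking protein, by 0.64 and Acp1, a phosphatase that acts on PDGF receptors, by 0.46, while the deubiquitinase gene Usp8 (-0.36) and the ubiquitin ligase gene Cblb (-0.31) fell.

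Of 13 tested transcription factor genes known from work on PDGF promoters, 5 were called higher and 0 lower (38.5%), and 6 and 0 with the batch as a block. Egr1, an immediate-early zinc finger factor, rose from 34.8 ± 8.53 to 176 ± 14.9 CPM (log2 2.34, Benjamini-Hochberg adjusted p = 8.28e-07 by edgeR quasi-likelihood), Myc from 77.2 ± 6.72 to 120 ± 12.2 CPM (0.64) and the NF-Y subunit gene Nfyc from 17.6 ± 1.18 to 22.3 ± 2.82 CPM (0.34). Of 12 tested genes for ligand processing and binding, 4 were called higher and 0 lower (33.3%), and 5 and 1 with the block. Plaur, the urokinase receptor, rose from 13.9 ± 2.15 to 24.2 ± 6.75 CPM (0.80). Of 8 tested genes of the related VEGF family, 2 were called higher and 2 lower, with Nrp2 higher (0.78) and Vegfd (-0.41) and Vegfb (-0.36) lower. The block gave 3 and 2 for this family. With the long CASC15 GapmeR in untreated cells, ligand processing and binding had 0 called higher and 6 lower of 12, and the other receptor tyrosine kinases 8 higher and 5 lower of 24, against 25.0% of all genes (1855 of 15103 higher and 1928 lower). Promoter regulators had 3 higher and 3 lower of 13, negative regulators 4 and 3 of 20, receptor-proximal signalling 5 and 2 of 29, and the VEGF family 0 and 2 of 8, shares of 46.2%, 35.0%, 24.1% and 25.0%. With the batch as a block (40.6% of all genes called), receptor-proximal signalling had 6 higher and 7 lower. Promoter regulators then had 5 and 4, negative regulators 6 and 4, and the VEGF family 2 and 3. Ligand processing and binding had 1 and 7, and other receptor tyrosine kinases 9 and 7.

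**Figure D5:**
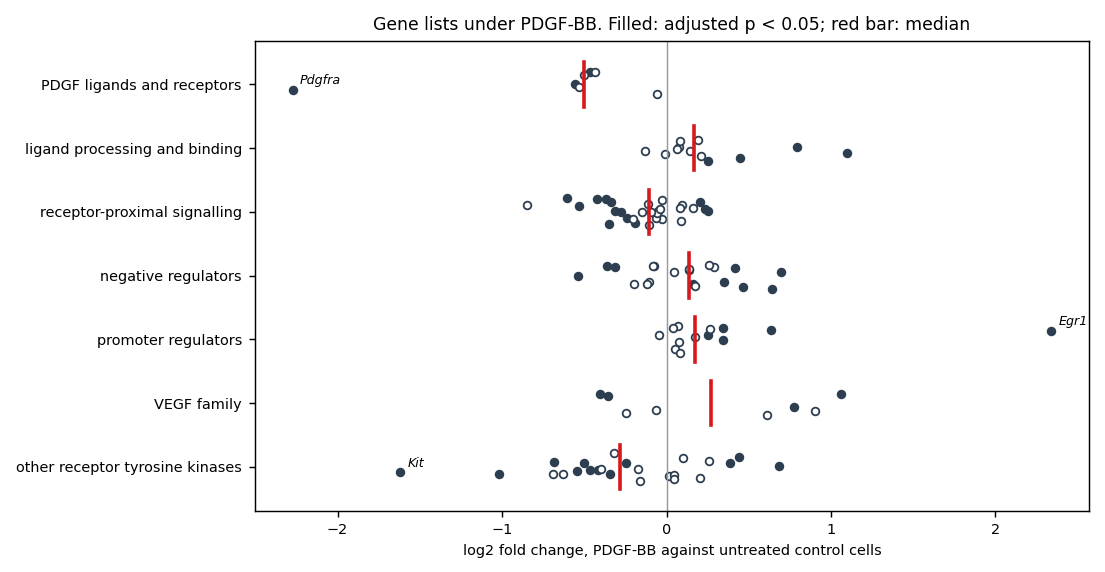
Log2 fold change under PDGF-BB of the PDGF genes and of the tested genes of 6 pathway lists, 1 point per gene, filled where the adjusted p was under 0.05, with red bars at list medians. Pdgfra (-2.27) and Kit (-1.62) are the lowest points, and Egr1 (2.34) is the highest.

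Likeness of pattern was measured as Pearson's r of log2 CPM over the 20 libraries of run 3 among 10173 genes, as a description in which libraries share batch and treatment. For Pdgfra the nearest genes were Fam120b (r = 0.986) and Zfp12 (0.98), and for Pdgfrb Acaa1a (0.973) and Arfrp1 (0.955). Fam120b changed far less than Pdgfra, by -0.29 on the log2 scale under PDGF-BB and 0.20 with the long CASC15 GapmeR. Pdgfb ran closest to Zfp57 (0.975), whose change with the GapmeR was -2.73, and to Cxadr (0.969). Pdgfa ran closest to Calml4 (0.944) and Ccdc39 (0.942), and Pdgfd to Ubxn1 (0.921) and Tspyl1 (0.92). Pdgfc (Mapk9, 0.789) and Pdgfrl (Rpl38, 0.757) had no neighbour above an r of 0.79.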

How the data were processed

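The members and gene lists were chosen with earlier results of these data known. The authors deposited expected counts per gene, made with RSEM per the table's name in the labels. The submitters' processing notes name STAR 2.7.11b, RSEM 1.3.1, GRCm39 and mm10; annotation and strandedness are not given in the sources used here. Reads were paired, 75 bp. GENCODE M21 gave symbols to 51486 of 78334 identifiers (98.7% of counts) and exon lengths. Counts were rounded, filtered with filterByExpr (minimum count 10, total 15; 15350 genes in run 2, 15103 in run 3), scaled with TMM and fitted per run with all its groups by edgeR 4.0.16's quasi-likelihood test with robust dispersion (R 4.3.3), Benjamini-Hochberg adjusted over all genes, two-sided. CPM carry TMM factors. The batch label pairs libraries: deviations from group means correlated at a mean r of 0.23 (run 2) and 0.197 (run 3) within a batch, and -0.121 and -0.0606 otherwise. The fit was tested on simulated data with 2-fold changes. It recovered 28.3% of them for total knockdown, 43.7% for overexpression and 66.7% to 75.8% in the comparisons of run 3, with 4 to 11 false calls. Named list genes were up to 3 called genes per direction with the largest change, a mean CPM of at least 5 and no overlap between groups, of which 1 is not reported here; the 2 most alike genes per member were named from the same CPM minimum. Alternatives were DESeq2 1.42.0, RLE factors, no filter, a minimum mean CPM of 1, fits of the compared groups alone, the batch as a block, each library left out and, chosen after seeing the data, P19 left out.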

Additional observations from a re-analysis of the deposited data

Results flagged for a closer look

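In 6 of 35 combinations of member and group of 4 libraries in run 3, 1 library stood far from the other 3 relative to the range (Dixon's 95% critical value), where chance marks about 1 in 20. With the long CASC15 GapmeR and angiotensin II, Pdgfra was at 14.6 CPM in P19 and 55.7 to 59.9 CPM in the others, and Pdgfa at 13 CPM in P19 and 17.8 to 18.6 CPM in the others. In the same group Pdgfb was at 1.75 CPM in P16 against 2.99 to 3.08 CPM, and Pdgfrl at 1.80 CPM in P18 against 1.44 to 1.49 CPM. Pdgfrb in control cells with angiotensin II was at 205 CPM in P19 against 262 to 270 CPM. Pdgfrl in untreated control cells was at 1.79 CPM in P19 against 1.40 to 1.43 CPM.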

How the results depend on the processing

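With the batch as a replicate block, the number of members called rose from 3 to 5 for PDGF-BB against untreated cells and against angiotensin II, from 2 to 4 for the long CASC15 GapmeR in untreated cells, and from 1 to 3 for total knockdown and for overexpression; it changed no member's call in either test of angiotensin II or in the interaction, where DESeq2, and the fit of only the groups compared, gave 0 to 1 genes. Over all genes the block moved the counts to 2209 from 317 for total knockdown, to 2721 from 253 for overexpression, and to 6126 from 3783 and 6238 from 4033 for the long GapmeR without and with angiotensin II. Without a filter on low counts, 2 members were called for total knockdown and 2 for overexpression (1325 and 1363 genes), and 1 for the long GapmeR in each state. With only the groups compared in the fit, 2 members were called for total knockdown, 5 for PDGF-BB and 1 for the long GapmeR in untreated cells. The gene counts were 1079 for total knockdown, 6284 for PDGF-BB and 66 for overexpression. DESeq2 called 2 members for overexpression, with 807 genes, and 719 genes for total knockdown. A mean CPM of at least 1 gave 190 genes for total knockdown. Without P19, 2 members were called for overexpression (844 genes), 5 for PDGF-BB against angiotensin II, and 6062 genes for the long GapmeR in untreated cells. Leaving out each library gave 1 to 1 members for overexpression (86 to 867 genes) and 2 to 5 for PDGF-BB (5601 to 6624 genes). For the long GapmeR it gave 1 to 3 in each state (2889 to 4882 genes untreated, 3042 to 4880 with angiotensin II). For total knockdown each such fit has a lone library in 1 group, and the Pdgfa change ran from -0.9 to -0.68. Changes near 0 reversed sign, none of them called. Leaving out 1 library gave ranges of -0.14 to 0.2 for Pdgfrb and -0.15 to 0.02 for Pdgfrl under overexpression, -0.21 to 0.01 for Pdgfc under PDGF-BB, -0.09 to 0.14 for Pdgfc against angiotensin II (-0.12 without P19), -0.02 to 0.25 for Pdgfrl with the long GapmeR, and under angiotensin II -0.05 to 0.15 for Pdgfa and -0.04 to 0.3 for Pdgfrl (-0.01 without P19). The causes were not tested. Of the other alternatives, 33 gained a call for a single member, 33 lost one and 555 were counted as unchanged. Unchanged meant the same direction and side of the threshold. In the tests of angiotensin II and in the interaction it meant instead that the largest member change stayed within 1 SE. Pdgfrl had 12 to 53 counts per library in run 3, the fewest of the members.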
